A study of Homo sapiens with 3 samples.

Results

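The genes described here encode the subunits of the mTOR complexes (MTOR, MLST8, DEPTOR, RPTOR and RICTOR), the substrates through which mTORC1 acts on protein synthesis (RPS6KB1, RPS6KB2 and EIF4EBP1) and a pair of sestrins (SESN1 and SESN3). They were chosen by symbol, as 10 of the 19775 genes that are read by at least 1 probe set naming a single gene. In all, 23 probe sets read them, of which 15 were bright enough to be used. Expression was measured in HCT-116 cells, an established human colorectal cancer line, on 3 arrays. SCD1-WT cells were treated with T-3764518, a small-molecule inhibitor of the desaturase SCD1, at 100 nM for 24 h; SCD1-KO cells lack SCD1 through Cas9 editing with a pair of guide RNAs; and SCD1-WT cells treated with DMSO for 24 h were the control. For SCD1-KO cells the labels give neither vehicle nor time. The study's results describe the SCD1-KO cells it compared with the control as treated with DMSO. The SCD1-KO cells were grown from clones picked by PCR, so loss of SCD1 and differences between clones cannot be told apart.

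mTOR is a protein kinase that works in 2 complexes. mTORC1, which holds RPTOR, senses amino acids at the lysosome and drives protein synthesis by phosphorylating the S6 kinases and EIF4EBP1, and it restrains autophagy. mTORC2, which holds RICTOR, phosphorylates AKT and SGK kinases. AMPK, the energy sensor that the study followed, inhibits mTORC1 by phosphorylating RPTOR and the TSC complex, and sestrins inhibit it by binding GATOR2, a part of the amino acid sensing machinery. The study followed phosphorylated S6K by immunoblotting of SCD1-KO and SCD1-WT cells to read mTOR activity, and reported less of it in SCD1-KO cells. The arrays measure mRNA and not phosphorylation, so the question they answer is whether the mRNAs of these proteins differed when SCD1 was inhibited or knocked out.

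With 1 array per condition, differences between conditions could not be checked against replicates, and p-values were not calculated. Probe sets counted as used when their log2 signal, averaged over the 3 arrays, reached that of the median probe set (a signal of 56.6). The ratio of a gene is the median over its used probe sets on the log2 scale. Each ratio carries as its error the SD found among probe sets that read the same gene at a similar signal, which leaves out differences between cultures. A gene was called higher or lower at 2-fold. After the scaling of MAS5 the median signal was 56.7 with the inhibitor, 62.4 in SCD1-KO cells and 68.8 with DMSO. The 3′ over 5′ ratio for ACTB, a measure of RNA degradation, was 1.36, 1.54 and 1.30 on the same arrays. SCD, the targeted gene, had a geometric mean signal of 14919 with the inhibitor, 5506 in SCD1-KO cells and 2907 with DMSO, but its brightest probe set had log2 ratios to DMSO of only 0.72 and 0.017. The part deleted in SCD1-KO cells is not placed on its probe sets by the labels or methods, so this signal does not check the knockout. Of 8 colon epithelial markers, 7 lay above 56.6 on every array, with CEACAM6 the exception at 51.3, 8.53 and 10.3. Of 7 markers of other cell types, PTPRC, VWF and ALB lay below 56.6 on all arrays, DCN with T-3764518 only, and CD3E, PECAM1 and COL1A1 on none. The epithelial markers CDH1 (1285 in SCD1-KO cells, 5038 with DMSO), EPCAM (6840 and 16859) and CLDN7 (2360.07 and 5580) were 2-fold or more lower in SCD1-KO cells. Of the other detected ones, KRT8 (15723 in SCD1-KO cells, 12259 with DMSO), KRT18 (28119.5 and 23407) and KRT19 (26158 and 25313) were higher and CLDN4 (2326 and 2854) was lower, all by less than 2-fold. Whether these differences have a part in the SCD1-KO ratios of the 10 genes was not tested.

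None of the 10 genes was 2-fold higher or lower with T-3764518, against 5.49% of all 12321 tested genes, and none in SCD1-KO cells, against 7.05%. At the lower threshold of 1.5-fold, 2 were lower with T-3764518, namely DEPTOR and SESN3, against 12.3% of all genes on that side, and none was higher, against 6.62%. In SCD1-KO cells none of the 10 passed 1.5-fold, against 21.4% of all genes (9.95% higher and 11.4% lower). The median log2 ratio of the 10 genes was -0.23 with T-3764518, beside -0.087 over all tested genes, and 0.050 in SCD1-KO cells, beside -0.011. With T-3764518 8 of the 10 ratios lay below 0, and in SCD1-KO cells 4 did. Of all tested genes with T-3764518, 55.9% lay below RPS6KB1 at -0.030 and 60.9% below RICTOR at 0.018, to either side of 0. In SCD1-KO cells 51.2% of all tested genes lay below RPS6KB2 at 0.00048. After scaling the arrays to 1 median signal, the median of the 10 genes with T-3764518 was 0.049, beside 0.19 over all genes. The median absolute log2 ratio was 0.26 with T-3764518, beside 0.27 over all genes, and 0.27 in SCD1-KO cells, beside 0.29.

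**Figure D1:**
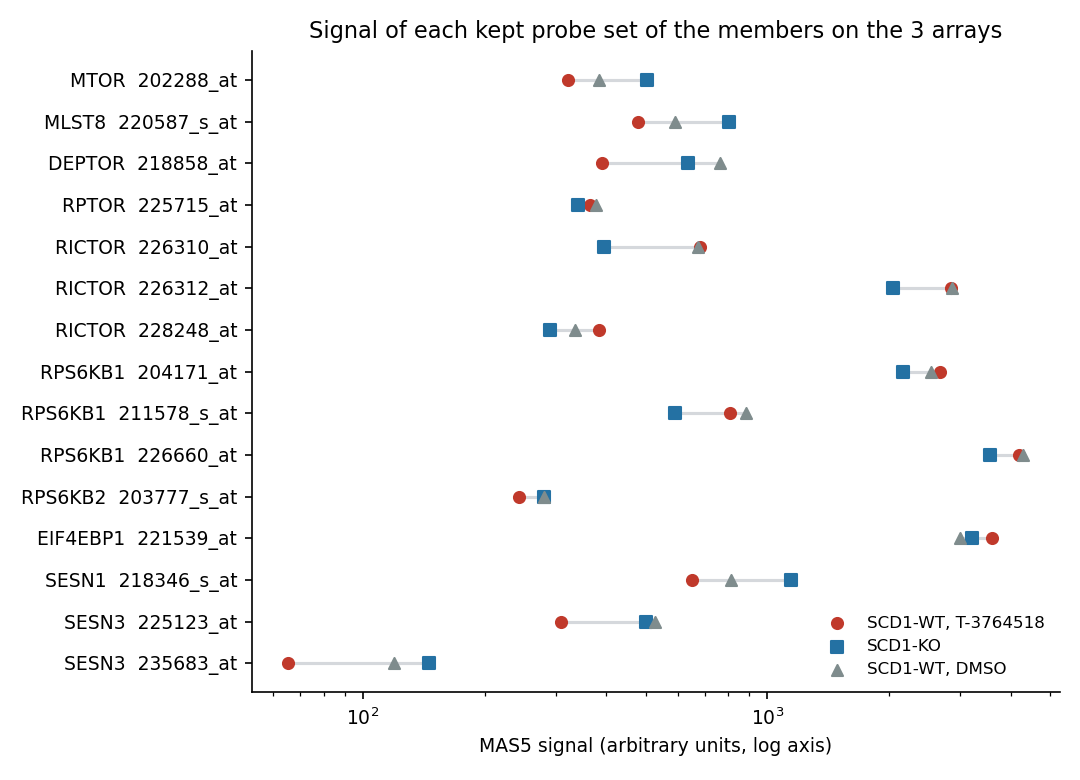
MAS5 signal (arbitrary units, log axis) of the 15 used probe sets of the 10 genes on each array, with T-3764518 as circles, SCD1-KO as squares and DMSO as triangles. Signals of 7 probe sets were lowest with T-3764518, those of 7 were lowest in SCD1-KO cells, and the EIF4EBP1 probe set was lowest with DMSO.

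Both complexes share MTOR, the catalytic subunit, and MLST8, which binds its kinase domain. MTOR had a signal of 320.8 with the inhibitor, 505 in SCD1-KO cells and 383 with DMSO. MLST8 had 478 with the inhibitor, 804 in SCD1-KO cells and 591 with DMSO. For both genes the T-3764518 array was the lowest and the SCD1-KO array the highest. MTOR was at 0.838-fold its DMSO level with T-3764518 (log2 ratio -0.26, SD 0.34) and at 1.32-fold in SCD1-KO cells (0.40, SD 0.34). MLST8 was at 0.809-fold (-0.31, SD 0.34) and 1.36-fold (0.44, SD 0.34). With T-3764518 both distances from DMSO were within 1 SD, and in SCD1-KO cells both were past 1 SD and within 2. When the arrays were scaled to 1 median signal, the ratios with T-3764518 became 0.023 for MTOR and -0.027 for MLST8, beside 0.19 over all genes. MTOR rests on 1 used probe set. A second one, 215381_at, had signals of 15.4, 11.2 and 3.30 on the same arrays, all below 56.6, and letting it in gave log2 ratios of 0.98 and 1.08.

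DEPTOR binds both complexes and lowers the activity of the kinase. Its signal was 390.5 with the inhibitor, 635 in SCD1-KO cells and 766 with DMSO, so it was lowest with the inhibitor and highest in the control. The log2 ratio of -0.97 with T-3764518 (SD 0.34, 0.510-fold) was the farthest from 0 of the 10 genes and the only one past 2 SD. It was just short of 2-fold, and 3.63% of all tested genes were lower. In SCD1-KO cells the ratio was -0.27 (SD 0.34, 0.830-fold), with 27.5% of all genes lower. The dim probe set of DEPTOR, 234071_at, had the same order, at 11.5, 20.7 and 33.5. With it the ratio was -1.26 with T-3764518, so without the filter on dim probe sets DEPTOR alone of the 10 genes passed 2-fold with T-3764518. Under the alternatives tried the T-3764518 ratio lay between -1.26 and -0.69.

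RPTOR and RICTOR set mTORC1 and mTORC2 apart. RPTOR, the scaffold that brings substrates to mTORC1 and a phosphorylation target of AMPK, had 365 with the inhibitor, 340.4 in SCD1-KO cells and 377 with DMSO. Its log2 ratios of -0.048 and -0.15 (SD 0.34 for each) were within 1 SD of 0. RICTOR, the scaffold of mTORC2, was read by 3 used probe sets. The brightest, 226312_at, had 2848 with the inhibitor, 2043 in SCD1-KO cells and 2872 with DMSO. On 226310_at the signals were 681, 394 and 673, and on 228248_at 382.5, 290.4 and 335. The SCD1-KO array was the lowest on each of them. On the dim probe set 1552734_at, which was not used, it was the highest (27.4, 29.4 and 26.2 on the same arrays). The gene's log2 ratio was 0.018 with the inhibitor (SD 0.29) and -0.49 in SCD1-KO cells (SD 0.30), 1.01-fold and 0.711-fold. In SCD1-KO cells the ratios of the used probe sets were -0.49 on 226312_at, -0.77 on 226310_at and -0.20 on 228248_at. There 14.8% of all tested genes were lower than RICTOR. The SCD1-KO ratio stayed between -0.63 and -0.35 under the alternatives.

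Among the substrates, RPS6KB1 encodes the S6 kinase whose phosphorylation the study followed in SCD1-KO cells. On its probe set 226660_at the signal was 4204 with the inhibitor, 3562 in SCD1-KO cells and 4293 with DMSO. The probe set 204171_at had 2675, 2168 and 2535, and 211578_s_at 807, 592 and 885. As for RICTOR, SCD1-KO cells had the lowest signal on all 3. The log2 ratio was -0.030 with the inhibitor (SD 0.26) and -0.27 in SCD1-KO cells (SD 0.25). These are 0.979-fold and 0.830-fold the DMSO level. RPS6KB2, its paralog, had 243 with the inhibitor, 279.9 in SCD1-KO cells and 279.8 with DMSO. Its ratios were -0.20 and 0.00048 (SD 0.42 for each), so the SCD1-KO and DMSO arrays were level. EIF4EBP1, which blocks the cap-binding factor EIF4E until mTORC1 phosphorylates it, had 3604 with the inhibitor, 3208 in SCD1-KO cells and 2992.5 with DMSO. It was the only 1 of the 10 genes whose lowest signal was with DMSO, though the share of all genes with that order was not calculated. EIF4EBP1 was at 1.20-fold with T-3764518 (log2 ratio 0.27, SD 0.26) and 1.07-fold in SCD1-KO cells (0.10, SD 0.25).

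**Figure D2:**
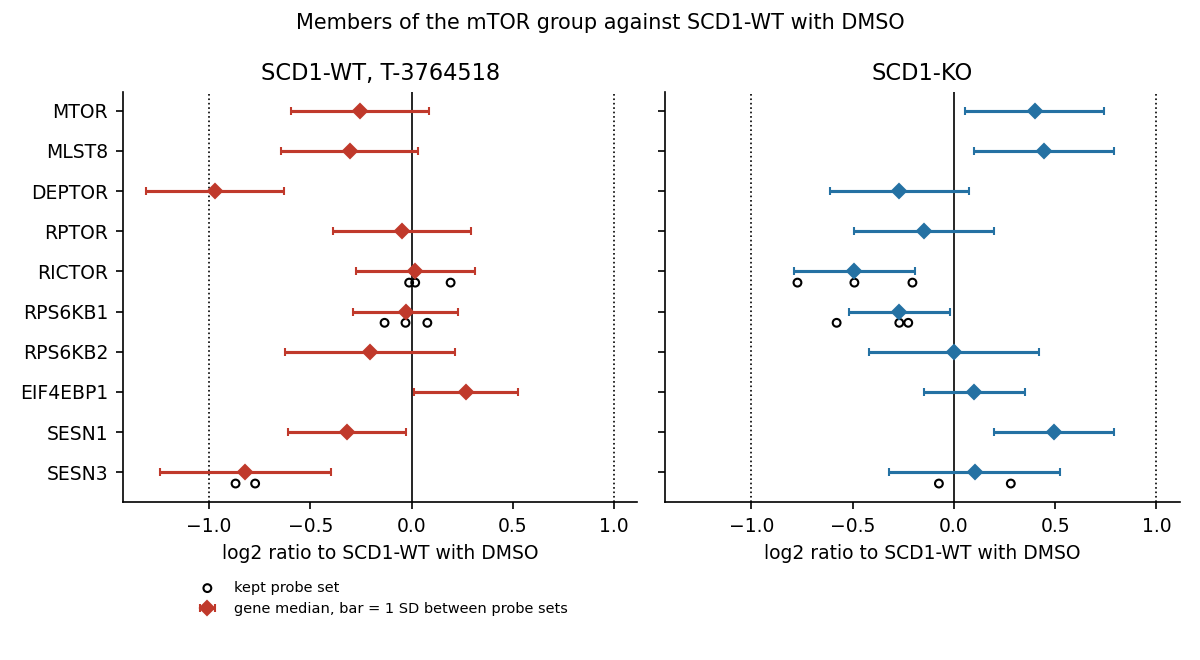
Log2 ratio of the 10 genes to DMSO-treated SCD1-WT cells, for T-3764518 on the left and SCD1-KO cells on the right. Diamonds are gene values, bars 1 SD among probe sets reading one gene at a similar signal, open circles single probe sets where a gene has more than 1, and dotted lines the 2-fold threshold. DEPTOR at -0.97 and SESN3 at -0.82 lie farthest from 0 on the left, and SESN1 at 0.49 and RICTOR at -0.49 on the right.

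Sestrins are stress-induced proteins, with SESN1 known as a target of p53 and SESN3 of FOXO factors. SESN1 had a signal of 650.2 with the inhibitor, 1143 in SCD1-KO cells and 811 with DMSO. The T-3764518 array was the lowest and the SCD1-KO array the highest, as for MTOR and MLST8. The log2 ratio was -0.32 with the inhibitor (SD 0.29, 0.802-fold) and 0.49 in SCD1-KO cells (SD 0.30, 1.41-fold). SESN3 was read by 7 probe sets, of which 2 were used. The brighter, 225123_at, had 309.6 with the inhibitor, 503 in SCD1-KO cells and 529 with DMSO. On 235683_at the signals were 65.4, 145 and 119.5. Both were lowest with T-3764518, whereas SCD1-KO cells lay below DMSO on one and above it on the other. The log2 ratio was -0.82 with the inhibitor (SD 0.42, 0.566-fold) and 0.10 in SCD1-KO cells (SD 0.42, 1.07-fold). The distance with the inhibitor was 1.95 SD. With T-3764518, 5.74% of all tested genes were lower. Of the 5 dim probe sets of SESN3, 4 had a lower signal with T-3764518 than with DMSO, among them 235684_s_at at 38.1 and 50.5. The exception was 242899_at, at 18.9 with the inhibitor, 17.0 in SCD1-KO cells and 2.80 with DMSO. The median signal of the whole array was also lower with T-3764518 (56.7, against 68.8 with DMSO). The share of all dim probe sets lower with T-3764518 was not calculated, so this count says little about SESN3. The T-3764518 ratio of SESN3 was between -0.82 and -0.54 under the alternatives.

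The promoters of MTOR and SESN3 are set beside that of RICTOR. MTOR and SESN3 were among the genes with lower signals with T-3764518 than in SCD1-KO cells, and RICTOR had a higher one. The 250 bases before their transcription starts are shown to compare their base composition and motifs, from RefSeq on GRCh38.p14, 5′ to 3′ on the minus strand, on which all 3 genes lie. Capitals mark the motifs found, which are CCAAT (the CCAAT box) and GGGCGG (the GC box), each on either strand. The MTOR stretch is chr1:11262552-11262801, that of SESN3 chr11:95232476-95232725 and that of RICTOR chr5:39074400-39074649.
MTOR: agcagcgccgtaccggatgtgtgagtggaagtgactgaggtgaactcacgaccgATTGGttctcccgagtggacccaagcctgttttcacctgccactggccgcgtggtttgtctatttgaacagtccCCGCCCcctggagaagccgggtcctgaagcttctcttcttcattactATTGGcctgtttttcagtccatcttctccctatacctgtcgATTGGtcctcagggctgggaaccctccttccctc
SESN3: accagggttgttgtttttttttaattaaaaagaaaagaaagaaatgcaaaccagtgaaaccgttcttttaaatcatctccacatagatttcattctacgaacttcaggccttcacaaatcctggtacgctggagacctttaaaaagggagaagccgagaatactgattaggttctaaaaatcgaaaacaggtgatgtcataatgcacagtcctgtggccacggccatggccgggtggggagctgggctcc
RICTOR: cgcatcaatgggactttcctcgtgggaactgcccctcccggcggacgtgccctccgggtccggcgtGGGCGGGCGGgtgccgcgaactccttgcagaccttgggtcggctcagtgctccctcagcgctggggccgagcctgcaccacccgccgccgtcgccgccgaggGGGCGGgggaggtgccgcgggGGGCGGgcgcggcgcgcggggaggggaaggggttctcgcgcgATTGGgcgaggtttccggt

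The stretches differed in composition, with 55.6% G and C for MTOR, 42.8% for SESN3 and 76.0% for RICTOR, beside a median of 58.0% over 35116 promoters. MTOR holds the CCAAT box 3 times and the GC box once, and RICTOR holds the CCAAT box once and the GC box 4 times, of which 2 overlap. SESN3 holds neither. Of all promoters, 32% hold the CCAAT box and 42.6% the GC box. Also searched on both strands were CACGTG (E-box, in 6.34% of all promoters), GTAAACA (a FOXO motif, 2.98%), TGATGCAA (a composite CEBP and ATF motif, 0.772%), TGACGTCA (the CRE, 1.65%) and the palindromic NRF1 motif (1.03%). None of these was found in the 9 promoters of the 7 genes that were scanned. DEPTOR, MLST8 and EIF4EBP1 were not scanned. A match describes these letters and is not a binding site.

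The ratio of the T-3764518 array to the SCD1-KO array, which does not use the DMSO array, was chosen after the other ratios were seen. In it 5 of the 10 genes were at least 1.5-fold lower with T-3764518, against 14.2% of all tested genes, and none was 1.5-fold higher, against 9.08%. None passed 2-fold, against 7.62% (3.1% higher and 4.52% lower). SESN3 had the lowest log2 ratio, at -0.92 (0.527-fold), followed by SESN1 at -0.81, MLST8 at -0.75, DEPTOR at -0.70 and MTOR at -0.65. RICTOR was at 0.48 and RPS6KB1 at 0.30 on the other side. The median of the 10 genes was -0.43, beside -0.057 over all genes, and 7 of them were farther from 0 than the median absolute ratio of 0.30 over all genes. MLST8 and SESN1 are read only by probe sets marked _s_at, which can match several transcripts or genes. Without such probe sets 7 genes and 3 of the 5 were left, and the median was 0.099. With the dim probe sets let in, the median was -0.15.

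**Figure D3:**
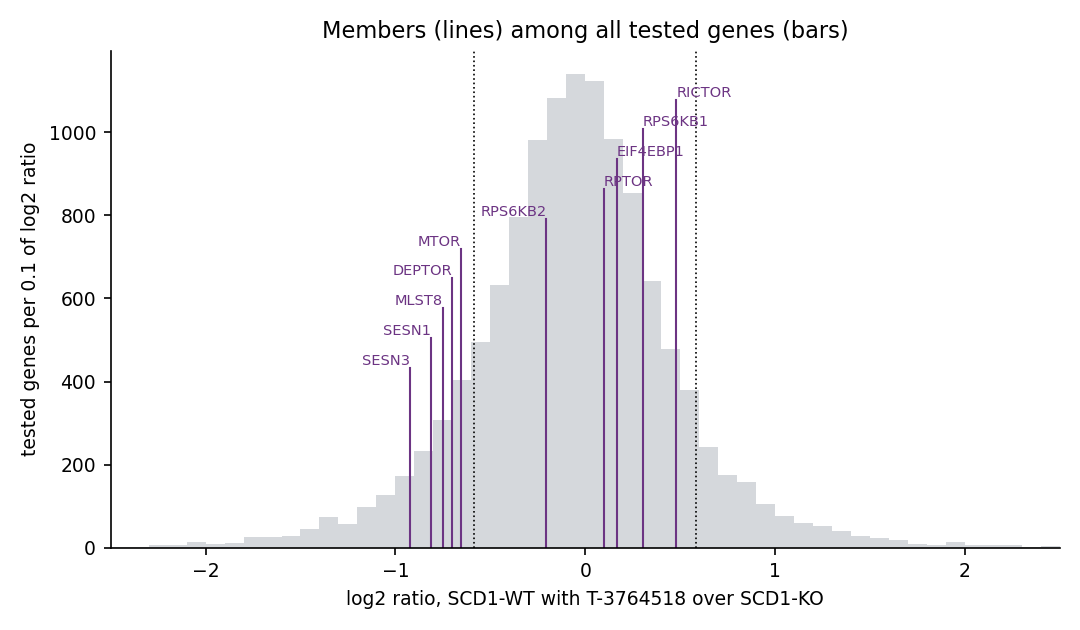
Log2 ratio of SCD1-WT cells with T-3764518 to SCD1-KO cells, with all 12321 tested genes as bars (number of genes per 0.1) and the 10 genes as labelled lines whose heights only keep the labels apart. Dotted lines mark 1.5-fold, and SESN3, SESN1, MLST8, DEPTOR and MTOR lie below the left one, from -0.92 to -0.65.

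The other genes of the pathway were taken from 6 lists by role, 77 in number, of which 68 had a probe set naming a single gene and 66 were bright enough to be tested. With T-3764518, 2 were 2-fold lower and none higher, against 3.3% and 2.18% of all genes. In SCD1-KO cells 2 were higher and 1 was lower, against 3.12% and 3.93%. The median of these 66 log2 ratios was -0.12 with the inhibitor and 0.020 in SCD1-KO cells.

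SESN2 is a sestrin known to bind leucine. On its probe set 223195_s_at the signal was 660 with the inhibitor, 891 in SCD1-KO cells and 303 with DMSO, and on 223196_s_at 1045, 1022 and 573. The T-3764518 and SCD1-KO arrays both lay above DMSO on each probe set. The log2 ratio was 0.99 with T-3764518, just short of 2-fold at 1.99-fold, and 1.20 in SCD1-KO cells, a 2.29-fold rise. From the brighter probe set alone the SCD1-KO ratio was 0.83, short of 2-fold. With T-3764518 the gene passed 2-fold after quantile normalization (1.04), the lowess correction (1.06) and scaling to 1 median (1.27). The other 15 tested genes of the GATOR, KICSTOR and amino acid sensor list were under 2-fold in both, and the list's medians were -0.10 and 0.090. Among them CASTOR3P had probe sets that differed with T-3764518, at -1.41 on the brighter, 1553971_a_at, and -0.085 on 227321_at. From the brighter alone it passed 2-fold.

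Of 7 genes of the TSC complex, RHEB and the REDD proteins, which restrain or activate mTORC1, DDIT4L alone was called. DDIT4L, also called REDD2, inhibits mTORC1, and its signal was 724 with the inhibitor, 2394 in SCD1-KO cells and 1576 with DMSO. It fell by 1.12 on the log2 scale with T-3764518 (0.459-fold) and was at 1.52-fold in SCD1-KO cells. After scaling to 1 median the T-3764518 ratio was -0.84, which is short of 2-fold. Of 14 tested targets of mTORC1, S6K and mTORC2, SGK1, a kinase that mTORC2 phosphorylates, fell to a signal of 232 with T-3764518, against 567 with DMSO (log2 ratio -1.29). In SCD1-KO cells SGK1 was at 602 (0.087). These 2 falls with T-3764518 each rest on 1 probe set.

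Of 11 tested genes of PI3K, PDK1 and AKT input, 2 were called, both in SCD1-KO cells. PIK3R1, a regulatory subunit of PI3K, was 2.31-fold higher there and at 0.869-fold with T-3764518. Its probe set 212239_at had 995 with the inhibitor, 2595 in SCD1-KO cells and 1145 with DMSO, and the SCD1-KO array was the highest on all 3 of its probe sets. PHLPP1, a phosphatase that removes the phosphate mTORC2 puts on AKT, was 4.23-fold lower in SCD1-KO cells, with signals of 415 with the inhibitor, 105 in SCD1-KO cells and 446 with DMSO on its 1 used probe set. With its dim probe set let in, the PHLPP1 ratios were 1.40 with the inhibitor and -1.08 in SCD1-KO cells. In the remaining lists no gene passed 2-fold. From the brightest probe set alone AKT1S1 (1.03), MAPKAP1 (1.02) and FNIP2 (-1.18) of these lists did so in SCD1-KO cells. Among 12 tested genes of Rag GTPases, Ragulator and folliculin, those farthest from 0 were FLCN, which acts on the Rag GTPases, at -0.84 with the inhibitor (-0.37 with its dim probe sets) and -0.15 in SCD1-KO cells, and RRAGD, a Rag GTPase, at -0.27 and -0.79. Among 6 other complex subunits and assembly factors they were AKT1S1, an inhibitory subunit of mTORC1, at 0.72 and 0.83, and TELO2, a co-chaperone of mTOR, at -0.51 and 0.22.

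**Figure D4:**
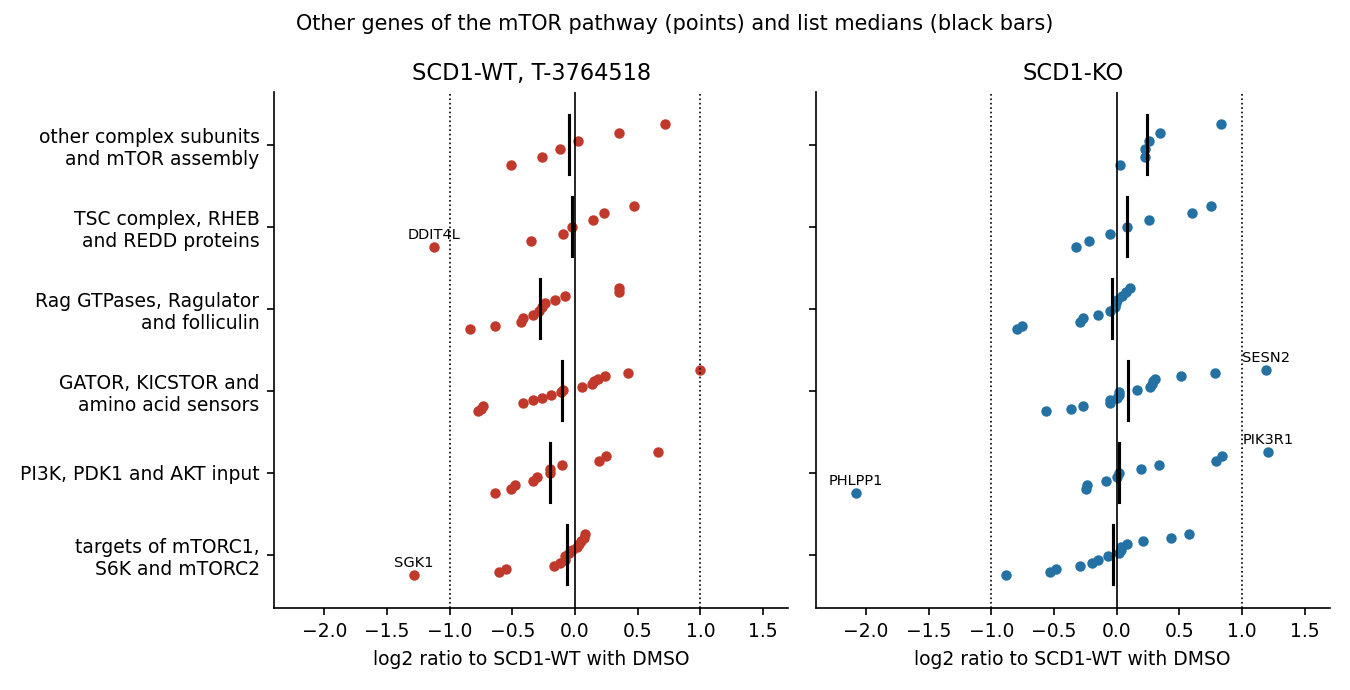
Log2 ratio to DMSO-treated SCD1-WT cells of 66 other pathway genes in 6 lists, for T-3764518 on the left and SCD1-KO cells on the right; black bars are list medians, dotted lines the 2-fold threshold, and called genes are labelled. With T-3764518 DDIT4L and SGK1 lie below the threshold, and in SCD1-KO cells SESN2 and PIK3R1 lie above it and PHLPP1 below.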

How the data were processed

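Total RNA of 3 HCT-116 cultures was labelled with biotin and hybridised to HG-U133 Plus 2.0 arrays. The values deposited by the authors are signal intensities, unlogged, 1 for each probe set; the submitters' processing notes name MAS5 and the sources used here give no version. MAS5 subtracts a local background and scales each array to one trimmed mean, which was 500.1 on every array. Its detection calls were not used here, and the number of arrays limits the precision.

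The platform annotation supplied gene names (41097 with 1 gene symbol, 1801 with several, 11777 not listed), with symbols updated through RefSeq gene IDs of GRCh38.p14. Of probe sets with 1 symbol, those at or above percentile 50 of mean log2 signal were kept, and their log2 ratios were summarised per gene by the median. Nothing was tested, as each group had 1 array. The error is the pooled SD of log2 ratios between probe sets of 1 gene in each of 5 bins of signal. Genes named were the 10 members, SCD and, per pathway list, those called at 2-fold (up to 4 per ratio and direction) or else the 2 farthest from 0. The members and lists were chosen with earlier results of these data known. The ratio of T-3764518 to SCD1-KO was added after the data were seen. Alternatives were quantile normalization, scaling to 1 median, a lowess correction (fraction 0.3), no filter, a stricter filter (percentile 75), adding 16.5 to each signal (their percentile 25), dim signals raised to 56.6, the brightest or the mean probe set, no _s_at or _x_at probe sets, and 1.5-fold or 3-fold thresholds. The calculation was tested on simulated data. Python 3.11.15, numpy 2.4.6, pandas 2.3.3, statsmodels 0.14.6 and matplotlib 3.10.9 were used.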

Additional observations from a re-analysis of the deposited data

How the results depend on the processing

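With 1 array per group, leaving out a replicate was not possible. The alternatives for the ratio of T-3764518 to SCD1-KO cells were chosen after seeing the data. Of 188 values of the other named genes, 179 moved by less than the SD between probe sets and 9 by more; none changed sign while called. No paired analysis was possible because each group has 1 array. Of 188 values of the 10 genes under the alternatives, 184 moved by less than the SD between probe sets. The exceptions were MTOR without the filter on dim probe sets (0.98 for T-3764518, 1.08 for SCD1-KO cells) and, after scaling to 1 median, RPS6KB1 (0.25) and EIF4EBP1 (0.55) with T-3764518. Of the values of the 10 genes, 4 of 20 changed sign after scaling to 1 median. Sign also changed for 2 of 20 after quantile normalization, for 2 of 20 from the brightest probe set and for at most 1 under each other alternative. Scaling to 1 median put the median of all genes at 0.19 for T-3764518, 0.13 for SCD1-KO cells. The count of the 10 genes past 2-fold, 0 in each ratio to DMSO, became 1 in each without the filter (DEPTOR with T-3764518, MTOR in SCD1-KO cells) and 2 with T-3764518 at 1.5-fold; against SCD1-KO cells it became 5 at 1.5-fold. The count past 1.5-fold with T-3764518 was 1 after scaling to 1 median, that in SCD1-KO cells was 1 after this scaling, without the filter and with a filter at percentile 75, and that against SCD1-KO cells was 3 without _s_at or _x_at probe sets.

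The median of the 10 genes with T-3764518 was 0.049 after scaling to 1 median, -0.11 after the lowess correction and -0.048 without _s_at or _x_at probe sets. In SCD1-KO cells it was 0.19 after scaling, -0.074 at percentile 75 and -0.15 without those probe sets. Against SCD1-KO cells it was -0.29, -0.70 and 0.099, and -0.15 without the filter. At percentile 75 and without those probe sets 7 genes were left. Of the other pathway genes, the 2 called with T-3764518 became 7 without the filter, 1 at percentile 75, 0 at 3-fold and 12 of 66 at 1.5-fold (18.9% of all genes), and the 3 in SCD1-KO cells became 6 without the filter, 5 from the brightest probe set, 1 at 3-fold and 12 of 66 at 1.5-fold (21.4% of all genes). With scaling to 1 median the count with T-3764518 was again 2, but DDIT4L (-0.84) was no longer called and SESN2 (1.27) was. In the ratio of T-3764518 to SCD1-KO cells 7 of 66 were called, 1 higher and 6 lower (7.62% of all genes, 3.1% higher and 4.52% lower), which became 11 without the filter, 3 at percentile 75, 3 at 3-fold and 16 at 1.5-fold (23.3% of all genes). Where no cause is named, the cause was not tested.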
